A study of Mus musculus with 8 samples.

Results

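The adipogenic transcription factors are described here in visceral white adipose tissue (vWAT) as 10 genes chosen by name, *Pparg*, *Cebpa*, *Cebpb*, *Cebpd*, *Rxra*, *Ebf1*, *Ebf2*, *Klf15*, *Zfp423* and *Nr1h3*, out of 31053 genes in the count table. Each symbol was matched to 1 Ensembl gene in the GRCm38 annotation. RNA was sequenced from epididymal vWAT of 4 KIKO mice and 4 wild-type (WT) mice, all C57BL/6 males aged 8 months, with 1 library per mouse. KIKO (knock-in/knock-out) mice carry a knock-in allele and a knock-out allele, and the WT mice were littermate controls. Both alleles are present in every cell from conception, so the comparison is not limited to fat cells, and whole tissue was extracted, so each value sums over adipocytes, progenitors, vessels and immune cells. Fewer cells of a type and less RNA per cell cannot be told apart in such data.

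Adipocyte formation is governed by a cascade of transcription factors. C/EBPβ and C/EBPδ are induced first by hormonal signals and switch on PPARγ and C/EBPα, which then maintain each other and the genes of the mature fat cell, with PPARγ binding DNA as a heterodimer with RXRα. ZFP423 and the EBF proteins mark and commit the precursors, while KLF15 and LXRα (encoded by *Nr1h3*) act in the differentiated cell, on glucose and amino acid use and on sterol and lipid handling, respectively.

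Libraries held 2602189 to 3478539 counts, and 6.91% to 10.7% of them came from mitochondrially encoded genes. WT mouse 3 lay among the KIKO mice on the principal component with the largest variance. Its score was 12.6, inside the KIKO range of 4.04 to 24.0, while WT mice 1, 2 and 4 scored -38.6 to -8.43. For that reason results that rest on it are given with and without it. Since it was singled out for lying among the KIKO mice, leaving it out tends to widen the differences between the groups. Fits without it are therefore a description and no independent support. WT mouse 1 lay at the other end of that component, at -38.6, and had the lowest mitochondrial share, 6.91%. Across genes, which are not independent replicates, Spearman's rho between transcript length and a gene's level relative to its mean over libraries was 0.262, 0.253, -0.110 and 0.110 in WT mice 1 to 4 and -0.166, -0.157, -0.0843 and -0.214 in KIKO mice 1 to 4.

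All 10 factors were expressed and passed the filter on low counts, and 1 of them, *Cebpd*, differed between the genotypes. It was lower in KIKO mice, and the other 9 did not pass the test, with log2 fold changes from -0.67 for *Klf15* to 0.56 for *Cebpa*. The median log2 fold change of the 10 factors was -0.03, beside -0.01 over all genes tested. Levels are CPM (a count scaled to the library total), adjusted by the trimmed mean of M values (TMM), fold changes compare KIKO with WT mice, and passing means an adjusted p below 0.05 in edgeR's quasi-likelihood test, adjusted over all genes. In that test 75 of 11080 genes passed (0.677%), 44 of them lower in KIKO mice (0.397%). Without WT mouse 3, 2 of the 10 factors passed, *Cebpd* and *Klf15*, both lower, where 5.81% of the genes tested passed. Without WT mouse 1, 0 of the 10 passed, where 48 of 11230 genes tested passed. The values of the 4 KIKO mice and of the 4 WT mice did not overlap for 1 of the 10 factors, against 8.45% of all genes tested. An unadjusted p under 0.05 was reached by 2 of the 10, against 16.2% of all genes.

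**Figure D1:**
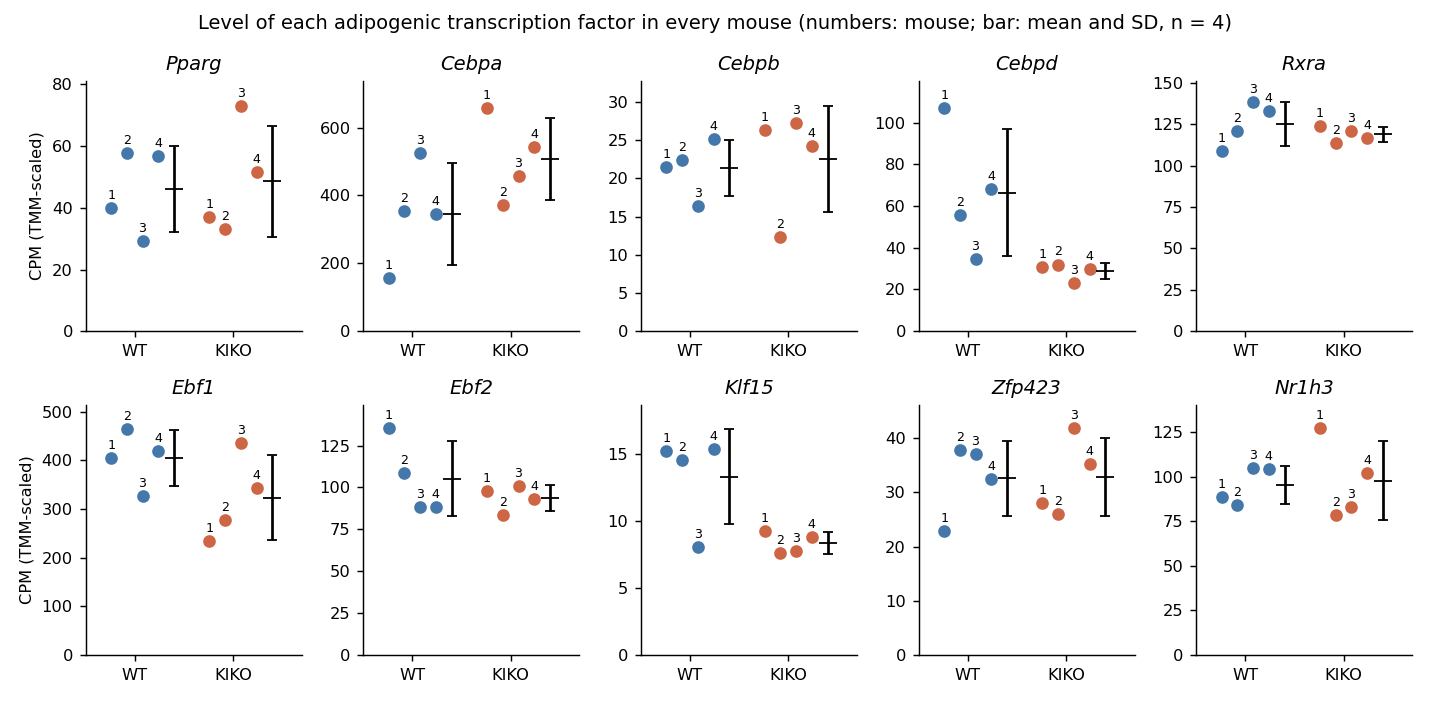
Level of each of the 10 factors in every mouse, in CPM scaled by TMM (vertical axes, linear and starting at 0), with WT mice in blue and KIKO mice in orange; numbers are the mice and black bars show the mean and SD of 4 mice. The KIKO values of *Cebpd* lie between 23.0 and 32.0 CPM, below all 4 WT values, whereas the values of the other 9 factors overlap between the genotypes.

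*Cebpd* encodes C/EBPδ, an early factor of the cascade that is also induced by glucocorticoids and by inflammatory signals. The gene is ENSMUSG00000071637 on chromosome 16, from 15887286 to 15891031 on the plus strand of GRCm38. It was measured at 107, 55.7, 34.8 and 68.3 CPM in WT mice 1 to 4 and at 30.7, 32.0, 23.0 and 29.9 CPM in KIKO mice 1 to 4. The KIKO mice lay close together, WT mouse 1 was the highest of all, and WT mouse 3 lay just above the highest KIKO mouse, so that the groups did not overlap. The mean of 66.4 ± 30.3 CPM in WT mice compares with 28.9 ± 4.02 CPM in KIKO mice (SD, n = 4 each). The log2 fold change was -1.20 with a 95% interval of -1.75 to -0.66 (standard error 0.26, edgeR adjusted p = 0.0464), which puts the KIKO level at 0.434 of the WT level. In an exact permutation test of the 8 mice, 2-sided, p was 0.0286, the smallest that 4 against 4 mice can give. The call was close to the threshold. Leaving out WT mouse 3 gave an adjusted p of 0.00485 in edgeR and a log2 fold change of -1.41. Leaving out any other mouse gave an adjusted p of 0.0616 to 0.177 in edgeR. Their log2 fold changes were -1.28 to -0.88, with -0.88 when WT mouse 1 was left out. It passed in DESeq2 (adjusted p = 0.00166) and did not pass in limma-voom (0.0847), in limma-trend on the authors' values (0.0700) or with an offset for transcript length in edgeR (0.0584), all with a log2 fold change of -1.19 to -1.07. The gene overlaps *Spidr* on the opposite strand, which had 79 counts in the 8 libraries together, fewer than *Cebpd* had in 7 of the single libraries (80 to 337).

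*Cebpb*, which encodes the other early factor C/EBPβ (ENSMUSG00000056501, chromosome 2 from 167688915 to 167690418, plus strand), was measured at 21.6, 22.4, 16.4 and 25.1 CPM in WT mice 1 to 4 and at 26.4, 12.4, 27.2 and 24.3 CPM in KIKO mice 1 to 4. KIKO mouse 2 was the lowest and KIKO mouse 3 the highest of all 8, and the groups overlapped. The genotypes differed by a log2 fold change of 0.09 (95% interval -0.37 to 0.56, adjusted p = 0.870 from edgeR), so that a change past about 1.5-fold in either direction lies outside the interval. It overlaps *Tmem189* on the opposite strand, which had 940 counts in the 8 libraries together, whereas *Cebpb* had 31 to 84 counts per library. Reads of the pair cannot be told apart if strand was not used in counting, and the interval above does not allow for that.

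*Klf15* (ENSMUSG00000030087, chromosome 6 from 90462576 to 90475238, plus strand) encodes a Krüppel-like factor that is induced by glucocorticoids and acts on *Slc2a4* and amino acid catabolism in fat, liver and muscle. It was measured at 15.2, 14.5, 8.03 and 15.4 CPM in WT mice 1 to 4 and at 9.24, 7.59, 7.77 and 8.79 CPM in KIKO mice 1 to 4. WT mice 1, 2 and 4 lay well above every KIKO mouse, whereas WT mouse 3 lay inside the KIKO range. With all 8 mice the means were 13.3 ± 3.53 CPM for WT and 8.35 ± 0.794 CPM for KIKO (SD, n = 4 each), and the log2 fold change of -0.67 (95% interval -1.17 to -0.16, standard error 0.24) did not pass the test (adjusted p = 0.177 from edgeR; exact permutation test, 2-sided, p = 0.0857). Without WT mouse 3 the log2 fold change was -0.84 and passed (adjusted p = 0.0294), and it passed too when an offset for transcript length and GC content was added to that fit (-0.92, adjusted p = 0.0293). Both fits leave out the only WT mouse inside the KIKO range, so neither adds support to the other. The levels rest on 19 to 48 counts per library, and DESeq2 gave no adjusted p.

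*Cebpa* (ENSMUSG00000034957, chromosome 7 from 35119293 to 35121928, plus strand) encodes C/EBPα, the factor of the late phase that keeps *Pparg* and insulin sensitivity genes active in mature adipocytes. Its levels were 156, 356, 524 and 345 CPM in WT mice 1 to 4 and 657, 372, 457 and 542 CPM in KIKO mice 1 to 4. WT mouse 1 was by far the lowest, and WT mouse 3 lay among the KIKO mice, so the groups overlapped. Between genotypes the log2 fold change was 0.56 (standard error 0.27, 95% interval -0.01 to 1.12, adjusted p = 0.317 from edgeR; exact permutation test, 2-sided, p = 0.143), and without WT mouse 3 it was 0.83 and still did not pass (adjusted p = 0.0594). Without WT mouse 1, the lowest, it was 0.31 (adjusted p = 0.526).

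Since early and late C/EBP factors follow each other, their counts were also set against each other within each library, which does not depend on the scaling between libraries. The log2 ratio of *Cebpd* to *Cebpa* was -0.54, -2.67, -3.91 and -2.33 in WT mice 1 to 4 and -4.41, -3.53, -4.30 and -4.17 in KIKO mice 1 to 4. The mean difference, KIKO minus WT, was -1.74, with WT mouse 3 inside the KIKO range (exact permutation test, 2-sided, p = 0.0571, adjusted p over the 4 ratios 0.229), and it was -1.14 without WT mouse 1. For *Cebpb* to *Cebpa* the difference was -0.62 (exact permutation test, p = 0.286, adjusted 0.571), and it ran from -0.98 without WT mouse 3 to -0.27 without WT mouse 1. Neither ratio passed.

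**Figure D2:**
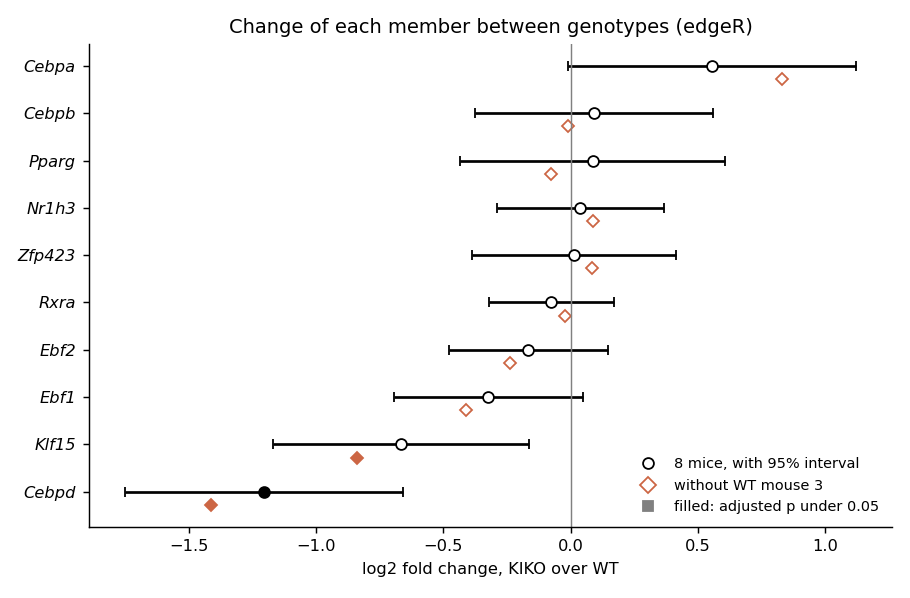
Log2 fold change of each factor between KIKO and WT mice from edgeR (horizontal axis), with circles and 95% intervals for all 8 mice and diamonds for the 7 mice without WT mouse 3; filled symbols passed at an adjusted p under 0.05. *Cebpd* is filled in both fits at -1.20 and -1.41, and *Klf15* only without WT mouse 3 at -0.84.

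*Pparg* (ENSMUSG00000000440, chromosome 6 from 115360951 to 115490399, plus strand) encodes PPARγ, the nuclear receptor without which no fat cell forms. The deposited counts are per gene and do not separate its isoforms. RefSeq (build GRCm38.p6) places the start of *Pparg* transcripts at 3 windows of 250 bases before to 50 bases after a start, and the most downstream, which lies inside the gene and starts the fat-selective isoform, is shown here because it is where C/EBP factors are known to act on *Pparg*. In capitals are matches, on either strand, to the C/EBP motif TTGCNNAA.
Pparg downstream start, chr6:115421816-115422115, plus strand: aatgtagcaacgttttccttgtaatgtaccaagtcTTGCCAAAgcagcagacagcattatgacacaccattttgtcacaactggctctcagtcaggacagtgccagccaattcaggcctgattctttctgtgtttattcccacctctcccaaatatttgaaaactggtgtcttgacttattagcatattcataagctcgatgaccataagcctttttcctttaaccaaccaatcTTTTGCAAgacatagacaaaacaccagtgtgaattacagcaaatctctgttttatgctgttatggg
Zfp423 upstream start, chr8:87959546-87959845, minus strand: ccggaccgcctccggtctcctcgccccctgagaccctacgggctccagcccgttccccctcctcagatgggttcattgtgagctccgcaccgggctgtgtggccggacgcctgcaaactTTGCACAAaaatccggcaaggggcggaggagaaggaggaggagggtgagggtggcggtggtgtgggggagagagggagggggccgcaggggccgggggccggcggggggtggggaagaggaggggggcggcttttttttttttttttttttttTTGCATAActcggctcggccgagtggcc
The matches in the *Pparg* window begin at -215 and, read on the opposite strand, at -16 relative to the start. Of 14 windows found for 8 of the 10 factors, the other one with a match was that of *Zfp423*, also shown, at -131 and 23, with the first transcribed base counted as 1. Over all 32851 windows in the table, searched on both strands, 10.8% hold this motif, and its matches overlap no other motif searched. No window of these 8 factors holds the glucocorticoid receptor motif (GNACA and TGTNC, spaced by 3 bases) or the PPAR-RXR motif (AGGTCA repeated with 1 spacer base), which 0.475% and 0.0396% of all windows hold. No entry was found for *Cebpd* and *Ebf2*.

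The level of *Pparg* was 39.9, 57.8, 29.1 and 56.9 CPM in WT mice 1 to 4 and 37.0, 33.2, 72.9 and 51.6 CPM in KIKO mice 1 to 4. Each genotype held low and high mice, with WT mouse 3 the lowest and KIKO mouse 3 the highest. The log2 fold change was 0.09 (standard error 0.24, 95% interval -0.43 to 0.61, adjusted p = 0.892 from edgeR), and it fell on the other side of 0 without WT mouse 3 (-0.08) or KIKO mouse 3 (-0.17). The interval leaves room for a change of up to about 1.5-fold. The paper counts PPARγ among the markers of lipid accumulation in KIKO vWAT. By western blot and RT-qPCR it reports their return to control values after butyrate. Why the counts here show no such change of *Pparg* was not tested.

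*Rxra* (ENSMUSG00000015846, chromosome 2 from 27676440 to 27762957, plus strand), the dimer partner of PPARγ and LXRα, was the steadiest of the 10, at 109, 121, 138 and 133 CPM in WT mice 1 to 4 and 124, 113, 121 and 117 CPM in KIKO mice 1 to 4. The KIKO values lay inside the WT range. The log2 fold change was -0.08 (95% interval -0.32 to 0.17, adjusted p = 0.794 from edgeR), the narrowest interval among the factors. The log2 ratio of *Rxra* to *Pparg* differed by -0.14 between the genotypes (exact permutation test, 2-sided, p = 0.686, adjusted 0.686), and was 0.11 without WT mouse 3.

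Among the factors of the precursor, *Ebf1* (ENSMUSG00000057098, chromosome 11 from 44617317 to 45008091, plus strand), which encodes an early B-cell factor that induces *Cebpa* and *Pparg*, was measured at 405, 465, 327 and 419 CPM in WT mice 1 to 4 and at 235, 278, 436 and 342 CPM in KIKO mice 1 to 4. KIKO mice 1 and 2 lay below every WT mouse, and KIKO mouse 3 lay above 3 of them. Its log2 fold change was -0.32 (standard error 0.17, 95% interval -0.69 to 0.05, adjusted p = 0.382 from edgeR). Its paralog *Ebf2* (ENSMUSG00000022053, chromosome 14 from 67233292 to 67430918, plus strand), a marker of brown and beige precursors, was at 136, 109, 88.4 and 88.1 CPM in WT mice 1 to 4 and at 97.7, 83.5, 101 and 92.9 CPM in KIKO mice 1 to 4. Only WT mice 1 and 2 lay above the KIKO range, and the log2 fold change was -0.17 (95% interval -0.48 to 0.15, adjusted p = 0.620 from edgeR). The log2 ratio of *Ebf2* to *Ebf1* differed by 0.20 between the genotypes (exact permutation test, 2-sided, p = 0.457, adjusted 0.610), and it ran from 0.044 without KIKO mouse 1 to 0.33 without WT mouse 1.

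*Zfp423* (ENSMUSG00000045333, chromosome 8 from 87661810 to 87959595, minus strand), a zinc-finger factor of committed preadipocytes that keeps white fat cells white, was measured at 22.8, 37.9, 37.1 and 32.5 CPM in WT mice 1 to 4 and at 28.1, 26.0, 41.8 and 35.1 CPM in KIKO mice 1 to 4. The means were almost equal, at 32.6 ± 6.93 and 32.7 ± 7.20 CPM (SD, n = 4 each), and the spread between mice of 1 genotype was far larger than the difference. Their log2 fold change was 0.01 (95% interval -0.39 to 0.41, adjusted p = 0.980 from edgeR).

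*Nr1h3* (ENSMUSG00000002108, chromosome 2 from 91184061 to 91202834, minus strand), which encodes the sterol receptor LXRα, was measured at 88.4, 84.2, 105 and 104 CPM in WT mice 1 to 4 and at 127, 78.3, 83.3 and 102 CPM in KIKO mice 1 to 4. KIKO mice held both the highest and the 2 lowest values. This gave a log2 fold change of 0.04 (95% interval -0.29 to 0.37, adjusted p = 0.924 from edgeR). Macrophages of fat also express this gene, so the level belongs to more than 1 cell type. *Nr1h3* overlaps *Gm13783* on the same strand, which is absent from the deposited counts. How reads in the shared stretch were counted is not known.

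Per kb of the longest annotated transcript, *Cebpa* was the most abundant of the 10 in WT mice (131 ± 57.3 CPM per kb), followed by *Ebf1* (67.5 ± 9.60), *Nr1h3* (48.1 ± 5.35), *Rxra* (25.5 ± 2.68), *Pparg* (21.6 ± 6.55), *Ebf2* (20.2 ± 4.32), *Cebpd* (17.7 ± 8.08), *Cebpb* (14.2 ± 2.42), *Zfp423* (6.64 ± 1.41) and *Klf15* (5.36 ± 1.42; mean and SD of 4 mice). The ranges of neighbours overlapped from *Cebpa* to *Ebf1*, from *Rxra* through *Cebpb*, and from *Zfp423* to *Klf15*, so the order within these runs is not firm. In KIKO mice the order was the same apart from *Cebpd*, which at 7.71 ± 1.07 CPM per kb came after *Cebpb* at 15.0 ± 4.59. According to the labels the libraries came from a digital mRNA-seq provider, and if reads came from transcript ends only, a scale per length does not apply between genes.

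Across the 8 mice, the levels of *Cebpd* and *Klf15* went together, with a Pearson's r of 0.91 on the log2 scale (Spearman's rho 0.71, and r = 0.86 without the 2 mice farthest from the median of *Cebpd*). The r was 0.79 for deviations from the genotype means. *Cebpa* and *Cebpd* went in opposite directions, with r = -0.85 (rho -0.79, r = -0.69 without the 2 mice farthest from the median of *Cebpa*, and -0.81 within genotypes). *Pparg* went with *Ebf1* (r = 0.71, rho 0.86, r = 0.77 without the 2 farthest mice, and 0.90 within genotypes) and with *Cebpb* (r = 0.70, rho 0.67, r = 0.58 without the 2 farthest mice, and 0.70 within genotypes). *Pparg* and *Cebpa*, which maintain each other in cultured fat cells, showed no such relation here (r = -0.04, rho -0.29). These pairs were picked among 45 after their values were seen and are a description of 8 libraries. The length trend named above and the marker sums given below differed between these libraries. Their part in the correlations was not tested.

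**Figure D3:**
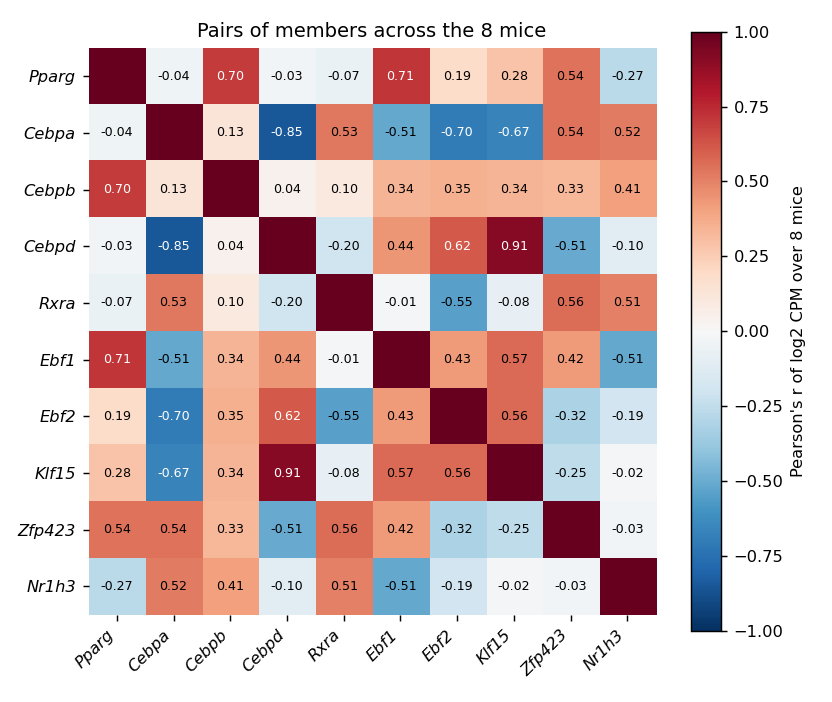
Pearson's r of log2 CPM over the 8 mice for each pair of the 10 factors, with red for positive and blue for negative r. The deepest cells are *Cebpd* with *Klf15* at 0.91 and *Cebpa* with *Cebpd* at -0.85, and *Pparg* is near 0 with *Cebpa*.

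The genes most like single factors over the 8 libraries were taken among 6192 tested genes with a mean of at least 20 CPM. For *Pparg* they were *Pabpc4* (r = 0.98), *Lpar6* (0.97) and *Lzts2* (0.97), for *Cebpa* they were *Ywhag* (0.98), *Rnf19b* (0.97) and *Cavin3* (0.97), and for *Klf15* they were *Dgkh* (0.97), *Smchd1* (0.96) and *Cnot1* (0.96). For *Cebpd*, looked up after its values were seen, they were *Herc1* (0.99), *Parp4* (0.98) and *Tmem87b* (0.98). The longest annotated transcripts of the genes most like *Klf15* measure 15257, 7052 and 8390 bases and those of the genes most like *Cebpd* 15153, 6387 and 4807 bases, against a median of 3471 bases over the genes tested, 2482 bases for *Klf15* itself and 3746 bases for *Cebpd*.

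The levels of several factors moved with the length trend of the libraries. Over the 8 libraries, Pearson's r between the log2 level and that rho was 0.90 for *Klf15*, 0.87 for *Cebpd*, 0.71 for *Ebf1*, 0.70 for *Ebf2* and -0.79 for *Cebpa*, and -0.33 to 0.27 for the other 5. Values at least as far from 0 were found for 4.17%, 6.16%, 22.9%, 23.8% and 13.5% of the genes tested, respectively. In WT mice 1, 2 and 4, whose rho was 0.110 to 0.262, *Cebpd* was 55.7 to 107 CPM and *Klf15* was 14.5 to 15.4 CPM. WT mouse 3 and the KIKO mice, whose rho was -0.214 to -0.0843, had *Cebpd* at 23.0 to 34.8 CPM and *Klf15* at 7.59 to 9.24 CPM. *Cebpa* was 156 to 356 CPM in the former and 372 to 657 CPM in the latter. With an offset for transcript length and GC content in edgeR, the log2 fold change was -1.21 for *Cebpd* (adjusted p = 0.0592), -0.73 for *Klf15* (0.192) and 0.57 for *Cebpa* (0.313), so that the sizes were close to those without it and no factor passed. The offset depends only on a gene's own length and GC content, and *Cebpd*, at 3746 bases, lies near the median of 3471 bases. Close sizes therefore do not tell whether the trend plays a part. The part of whatever sets this trend in the results was not tested.

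**Figure D4:**
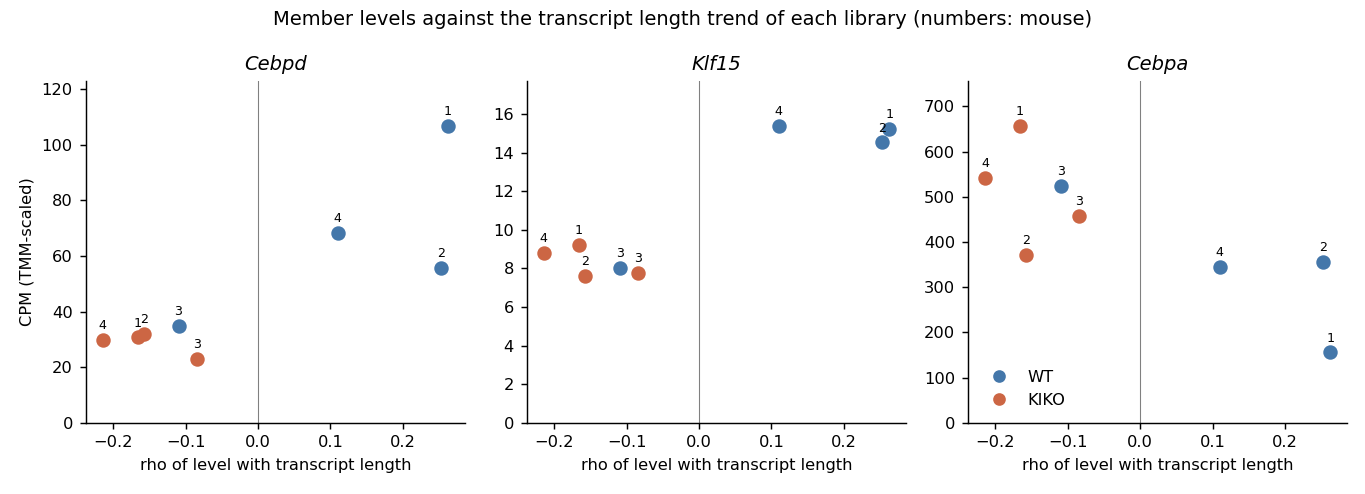
Level of *Cebpd*, *Klf15* and *Cebpa* in CPM (vertical axes, linear and starting at 0) against the Spearman's rho of relative gene level with transcript length in the same library (horizontal axes), with WT mice in blue, KIKO mice in orange and mouse numbers beside the points. WT mouse 3 lies with the KIKO mice in each panel, and the other 3 WT mice lie at a positive rho with higher *Cebpd* and *Klf15* and lower *Cebpa*.

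Further genes of the network were counted in lists that do not hold the 10 factors. The counts of these lists, and of the marker lists further on, are to be read beside the shares over all genes tested. In edgeR 0.677% passed and 16.2% had an unadjusted p under 0.05, and the groups did not overlap for 8.45%. Without WT mouse 3, 5.81% passed. In DESeq2 281 of 6166 genes with an adjusted p passed. Of 19 tested pro-adipogenic regulators, 1 passed, *Zbtb16*, and it was lower. *Zbtb16* encodes the zinc-finger factor PLZF, induced by glucocorticoids, and was measured at 461, 281, 161 and 272 CPM in WT mice 1 to 4 and at 78.9, 187, 83.3 and 105 CPM in KIKO mice 1 to 4, with WT mouse 3 below KIKO mouse 2. Its log2 fold change was -1.38 (edgeR adjusted p = 0.0453, standard error 0.29), and without 1 mouse it passed only when that was WT mouse 3 or KIKO mouse 2. The others of this list with the smallest p were *Klf9* (-0.43, adjusted p = 0.204), *Ebf3* (-0.53, 0.267), *Srebf1* (0.66, 0.312) and *Bmp4* (-0.35, 0.362). The median log2 fold change of the list was -0.08.

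Of 18 tested anti-adipogenic regulators, 0 passed in edgeR, 6 had an unadjusted p under 0.05 (16.2% over all genes), and in DESeq2 1 of the 10 with an adjusted p passed (281 of 6166 over all genes). The gene that passed in DESeq2 was *Id3*, an inhibitor of helix-loop-helix factors, at 58.0 ± 12.7 CPM for WT and 104 ± 31.3 CPM for KIKO (SD, n = 4 each), with a log2 fold change of 0.85 (adjusted p = 0.0704 from edgeR). The groups of *Id3* did not overlap. The next were *Sox9* (0.73, adjusted p = 0.168), *Trib3* (-1.30, 0.172) and *Klf2* (-0.63, 0.208), so that members of this list lay on both sides of 0, with a median of -0.21. Without WT mouse 3 *Id3* passed as higher, and *Klf2* and *Trib3* as lower.

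Of 19 tested paralogs, partners and cofactors of the 10 factors, 0 passed in edgeR and 0 of the 13 with an adjusted p in DESeq2, 1 had an unadjusted p under 0.05, and their log2 fold changes ran from -0.46 to 0.29. The lowest was *Ncoa2*, a nuclear receptor coactivator, at 23.8 ± 2.88 CPM for WT and 17.3 ± 1.29 CPM for KIKO (SD, n = 4 each, adjusted p = 0.170 from edgeR), and its groups did not overlap. *Nr1h2*, which encodes the LXRα paralog LXRβ, had a log2 fold change of 0.29 (adjusted p = 0.447).

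Of 32 tested target genes of PPARγ and C/EBPα in adipocytes, 0 passed in edgeR, 7 had an unadjusted p under 0.05, and 2 of the 31 with an adjusted p passed in DESeq2, *Adipoq* and *Cfd*, both higher. Over all genes, 16.2% had such an unadjusted p and 281 of 6166 passed in DESeq2, so these counts do not set the list apart. *Adipoq*, which encodes adiponectin, was at 4337, 3702, 5364 and 4060 CPM in WT mice 1 to 4 and at 6585, 5991, 5868 and 6919 CPM in KIKO mice 1 to 4, without overlap. Its log2 fold change was 0.54 (edgeR adjusted p = 0.102, standard error 0.15, and 0.0184 without WT mouse 3). With the offset for transcript length and GC content it was 0.42 (edgeR adjusted p = 0.195). The paper reports lower *Adipoq* mRNA in vWAT of KIKO males by RT-qPCR, the opposite direction. Why these differ was not tested. *Cfd*, which encodes adipsin, had a log2 fold change of 0.71 (adjusted p = 0.112), *Acsl1* of -0.50 (0.157) and *Plin1*, the coat protein of lipid droplets, of 0.23 (0.526). *Cidea* had 1.82 (adjusted p = 0.122) and stood high in KIKO mice 1 and 4 only, at 117 and 45.4 CPM against 9.51 to 18.4 CPM in the other 6 mice. The median of the 32 was 0.05.

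Of 13 tested LXR target genes, 1 passed, *Pltp*, and it was higher. *Pltp* encodes the phospholipid transfer protein, with 69.0 ± 13.2 CPM for WT and 120 ± 25.4 CPM for KIKO (SD, n = 4 each) and a log2 fold change of 0.80 (standard error 0.17, edgeR adjusted p = 0.0453). Without 1 mouse it passed only when that was WT mouse 3 or KIKO mouse 2. The cholesterol efflux gene *Abcg1* (-0.91, adjusted p = 0.109) and the ubiquitin ligase gene *Mylip* (-0.77, 0.0943), both targets of LXR as well, had the opposite sign, and *Arl4c* had 0.69 (0.157), so the list did not go one way (9 above and 4 below 0).

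Of 12 tested glucocorticoid receptor target genes, 1 passed, *Zbtb16*, and 8 had an unadjusted p under 0.05, against 16.2% of all genes tested. The median log2 fold change was -0.62, with 11 of the 12 below 0, against 5647 of 11080 over all genes tested. Next to *Zbtb16* were *Sgk1* (-1.49, adjusted p = 0.0715), *Per1* (-0.86, 0.170), *Klf9* (-0.43, 0.204) and *Tsc22d3* (-0.73, 0.245). Without WT mouse 3, 3 of the 12 passed, all lower, where 5.81% of the genes tested passed. Without WT mouse 1, 0 of the 12 passed, where 48 of 11230 genes tested passed. In WT mouse 1, *Zbtb16* (461 CPM), *Sgk1* (96.7), *Per1* (54.8), *Klf9* (518) and *Tsc22d3* (474) were each at their highest of the 8 mice. The list was chosen with earlier results of these data known, so its counts are a description. *Zbtb16* and *Klf9* stand in this list and in that of pro-adipogenic regulators, so the counts are not independent of each other.

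**Figure D5:**
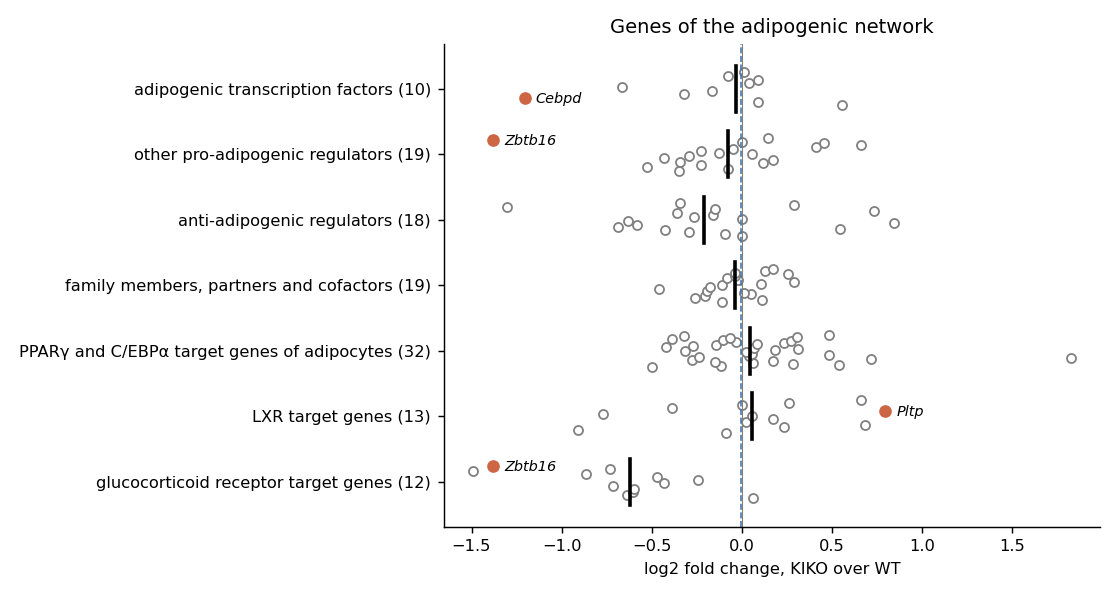
Log2 fold change between KIKO and WT mice (horizontal axis) of every tested gene in 7 lists of the adipogenic network, with the number tested in brackets, the list median as a black bar, the median of all genes as a dashed line, and genes that passed filled and named. The bars lie between -0.62 for glucocorticoid receptor targets and 0.06 for LXR targets, and *Cebpd*, *Zbtb16* and *Pltp* are the filled points.

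The tissue held the markers of fat, and no marker list was absent apart from that of epididymal epithelium, whose 6 genes were at 0 in all 8 libraries. The 8 adipocyte markers summed to 10088 to 13521 CPM for WT and 12579 to 13790 CPM for KIKO mice, and none passed in edgeR, with 1 at an unadjusted p under 0.05 and 1 passing in DESeq2. Each of the 10 factors was also set against this sum within libraries. On that scale *Cebpd* stood at -6.57, -7.50, -8.60 and -7.33 log2 units in WT mice 1 to 4 and at -8.78, -8.62, -9.14 and -8.85 in KIKO mice 1 to 4, which still do not overlap. The mean differences, KIKO minus WT, were -1.34 for *Cebpd*, -0.88 for *Klf15*, -0.60 for *Ebf1*, -0.39 for *Ebf2*, -0.32 for *Rxra*, -0.24 for *Zfp423*, -0.23 for *Nr1h3*, -0.22 for *Cebpb*, -0.18 for *Pparg* and 0.40 for *Cebpa*. Thus 9 of the 10 lay below 0 on this scale, whose denominator had a median of 10592 CPM for WT and 13218 CPM for KIKO mice, against 5 of 10 on the CPM scale. Much of that denominator was *Adipoq*, at 4366 ± 714 CPM for WT and 6341 ± 497 CPM for KIKO mice (SD, n = 4 each). Of the 8 markers, 5 lay above and 3 below 0. A value below 0 here therefore need not mean less of a factor per adipocyte. The share of all genes below 0 on this scale was not worked out. *Rxra*, whose CPM overlapped, stood at -6.55, -6.38, -6.61 and -6.37 in WT mice 1 to 4 and at -6.76, -6.79, -6.74 and -6.88 in KIKO mice 1 to 4 and did not overlap here. How many of all genes tested do not overlap on this scale was not worked out, so for *Cebpd* and *Rxra* this is a description only.

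Summed markers of the other cell types of fat are set beside these values. The 10 progenitor markers summed to 2661 to 3046 CPM for WT and 3252 to 3822 CPM for KIKO mice, with *Cd248* passing as higher among 9 tested, of which 5 lay above and 4 below 0 (median 0.10). Much of this sum was *Dcn*, at 2091 ± 126 CPM for WT and 2776 ± 217 CPM for KIKO (SD, n = 4 each, log2 fold change 0.41, adjusted p = 0.135 from edgeR and 0.00254 from DESeq2), whereas *Pi16*, a marker of early progenitors, had -0.36 (adjusted p = 0.260). The 12 macrophage markers summed to 1848 to 2085 and 2105 to 2613 CPM, and 10 of them lay above and 2 below 0 (median 0.35). *Lyz2* passed as higher, and *Mertk* had -0.97 (edgeR adjusted p = 0.0959). Without WT mouse 3, *Cd68*, *Csf1r* and *Lyz2* passed as higher and *Mertk* as lower. *Mertk* passed as lower without KIKO mouse 2 too. The 7 mesothelial markers summed to 245 to 357 and 265 to 510 CPM, with *Krt19* and *Upk1b* passing as higher. The vascular lists had medians below 0. The 9 endothelial markers summed to 570.0 to 722 CPM for WT and 364 to 577 CPM for KIKO mice, with *Robo4* passing as lower among 8 tested, and the 8 mural markers to 581 to 636 and 424 to 565 CPM, with 0 passing in edgeR, 4 at an unadjusted p under 0.05 and *Myh11* passing among 6 with an adjusted p in DESeq2. The 6 B cell markers overlapped widely, at 289 to 492 and 239 to 537 CPM. The 6 brown and beige markers, of which *Zic1* was at 0 in every library, summed to 31.4 to 53.0 and 42.8 to 151 CPM. In an exact permutation test of the log2 sums, 2-sided, p was 0.0286 for the progenitor, macrophage and mural lists, the smallest possible, and 0.0857 to 0.886 for the other 5 lists. Adjusted over the 8 lists the smallest was 0.0762, so no sum passed. The part of these cell types in the values of *Cebpd*, *Klf15* and *Ebf2* was not tested.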

How the data were processed

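RNA of vWAT from 4 WT and 4 KIKO mice was sequenced by the authors. Raw counts per Ensembl gene were deposited, beside log2 values that the authors made by dividing the counts of a library by its size factor and adding 1 before the log, a relation that the values bear out. The authors trimmed reads with Trimmomatic, aligned them to GRCm38 with HISAT2 and used StringTie and DESeq2, per the labels and the paper's methods. Sources differ on the libraries: a stranded TruSeq kit read on a NextSeq (methods), or digital mRNA-seq by a provider on a NovaSeq (labels). The annotation release is not given in the sources used here. Of 31053 gene identifiers, 30934 were found in GENCODE vM21, which gave symbols, positions and lengths, and 12961 genes had no count. Nothing in the labels describes the sampling of the mice further, so p values measure the spread between these libraries.

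The analysis of counts used edgeR 4.0.16 in R 4.3.3 (TMM, filterByExpr by genotype, quasi-likelihood test, genotype as the only term), with Benjamini-Hochberg adjustment over the 11080 genes kept and a threshold of 0.05. Exact permutation tests used scipy 1.17.1. Ratios took 0.5 counts as pseudocount. Correlations used log2 CPM with a prior count of 2. Alternatives were other normalizations and filters, DESeq2 1.42.0, limma 3.58.1 (voom, and trend on the deposited log2 values), a replicate block, leaving out each mouse, and offsets for transcript length (mgcv 1.9.3). The offset for length with GC content, with and without WT mouse 3, was chosen after seeing the data. The fit was tested on simulated data. No pair of libraries agreed within counting noise (mean chi-square per gene of at least 3.81, where 1 is counting noise), and same-numbered mice did not deviate together. Promoter windows are RefSeq's.

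The targeted gene is not reported here. The members and lists were chosen with earlier results of these data known. The text names all 10 factors, and from each list of regulators or targets the genes that passed and up to 4 others with the smallest p. It also names *Adipoq*, *Plin1*, and 3 genes most like *Pparg*, *Cebpa* and *Klf15*. Names outside this rule are marked, overlap a factor or are marker genes. Those marker genes passed in some fit, and *Pi16* and *Zic1* are named beside them.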

Additional observations from a re-analysis of the deposited data

Results flagged for a closer look

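The level of *Klf15* in WT mouse 3 was 8.03 CPM, far from 14.5 to 15.4 CPM in the other 3 WT mice. Its gap to the nearest of them took 0.882 of the range of the group, above Dixon's 95% critical value for 4 samples. This was the only such value among 28 groups of 4 tested (each factor and each ratio in each genotype), of which chance flags about 1 in 20.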

How the results depend on the processing

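The count of genes that differ, 75 with all mice, was 382 with no filter on low counts, 281 in DESeq2, 40 in limma-voom, 45 in limma-trend, 39 with an offset for transcript length, 32 with one for length and GC content, 334 with the latter and WT mouse 3 left out, and 0 to 654 without 1 mouse. It was 0 with the replicate number as a block in edgeR (1427 at an unadjusted p under 0.05), where *Cebpd* had -1.12 and an adjusted p of 0.0961; same-numbered mice correlated at -0.152 to 0.0285, so the numbers share only a name. Where leaving out WT mouse 2, WT mouse 4 or KIKO mouse 4 gave 0, an unadjusted p below 0.05 was found for 1344, 1533 and 1328 genes; edgeR was the one tool applied to 7 mice. Of the 10 factors, 0 passed in limma-voom, limma-trend, the block and both offsets, 2 with length and GC offset without WT mouse 3, and 0 to 2 without 1 mouse; *Cebpd* alone passed under the other scalings and filters and in DESeq2. Small log2 fold changes changed sign, and none of them passed: *Pparg* (-0.17 to 0.23 without 1 mouse, and -0.17 with the length and GC offset without WT mouse 3), *Cebpb* (-0.011 to 0.28; -0.014 with the length offset, -0.082 with the length and GC offset without WT mouse 3), *Rxra* (0.034 in the latter fit), *Zfp423* (-0.12 to 0.10) and *Nr1h3* (-0.11 to 0.13; -0.033 with the length offset, -0.032 with the length and GC offset, -0.013 without WT mouse 3 in addition). The difference of the *Rxra*/*Pparg* ratio ran from -0.28 to 0.11 without 1 mouse. Genes that passed without 1 mouse numbered 0 to 1 of the pro-adipogenic, 0 to 3 of the anti-adipogenic, 0 to 1 of the PPARγ and C/EBPα target, 0 to 2 of the LXR target and 0 to 3 of the glucocorticoid receptor target list, and DESeq2 gave 1 anti-adipogenic gene and 2 PPARγ and C/EBPα targets. The cause of these shifts was not tested. Genes at the level of *Klf15*, at under 50 counts per library, are among those where depth limits what can be seen.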
